A study of Mus musculus with 2 samples.

Results

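The bodies of very long genes were taken as all protein-coding genes on autosomes that span 200 kb or more in GENCODE M21 (mouse genome build GRCm38), each read from 5 kb after its transcription start site (TSS) to its end. The annotation holds 953 such genes of 20807 autosomal protein-coding genes, with lengths from 200 kb to 4435 kb. Their bodies together cover 16.3% of the autosomal bases and hold 15.6% of the autosomal CG cytosines. Of the 953, 166 overlap another protein-coding gene and 38 overlap another long gene, and 2 gene models carry the name Arhgap26. Shared stretches were counted once wherever bodies were pooled, except in the profile along 20 equal parts, where they count for each gene. CG methylation was measured by whole genome bisulfite sequencing (WGBS) in primary osteoblasts from the skulls of 3-day-old C57BL/6 mice, cultured for 3 days. The WT library came from wild type mice and the TCKO library from mice with floxed alleles of all 3 Tet genes (Tet1fl/fl, Tet2fl/fl, Tet3fl/fl) deleted by Prx1-Cre. The Prx1 enhancer drives Cre in mesenchyme of the limbs and of part of the skull, so cells of other origins can keep intact Tet genes. Each genotype had 1 library, so every test here compares the 2 libraries and not the genotypes, and all intervals (95%) cover counting error only.

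TET enzymes oxidize 5-methylcytosine (5mC) to 5-hydroxymethylcytosine (5hmC) and further products, which leads to loss of the methyl group. The bodies of most mammalian genes are methylated at nearly all of their CG sites, apart from CG-rich starts and enhancers within introns, and transcribed bodies attract methyltransferases. Very long genes consist almost wholly of introns, many of them encode adhesion molecules, receptors and channels of neurons, and several lie at common fragile sites. Bisulfite sequencing reads 5mC and 5hmC alike as methylated, and a level is a mean over all cells of the culture.

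The gain in TCKO cells is easiest to see in single 200 bp bins within introns, where the gene body was unmethylated in WT and methylated in TCKO. Among gaining bins with at least 8 CG cytosines over both strands, those with the largest gain lay in Nav3, Supt3, Magi2, Dnm3 and Atp8a2. The sequences of those that touch no annotated exon are shown together with the bin of largest gain in Runx2, which was added after its value was seen. They are from the plus strand of GRCm38, 5′ to 3′, and capitals mark the CG dinucleotides whose calls were counted.
Nav3 chr10:110398601-110398800: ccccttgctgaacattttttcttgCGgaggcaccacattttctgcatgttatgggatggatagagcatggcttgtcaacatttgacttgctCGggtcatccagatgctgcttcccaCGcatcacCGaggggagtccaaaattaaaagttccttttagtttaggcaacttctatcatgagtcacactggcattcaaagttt
Supt3 chr17:45045001-45045200: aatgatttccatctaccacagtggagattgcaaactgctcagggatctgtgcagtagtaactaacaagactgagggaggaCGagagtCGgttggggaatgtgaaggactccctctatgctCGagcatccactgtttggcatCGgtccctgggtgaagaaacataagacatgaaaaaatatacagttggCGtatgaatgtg
Dnm3 chr1:162081801-162082000: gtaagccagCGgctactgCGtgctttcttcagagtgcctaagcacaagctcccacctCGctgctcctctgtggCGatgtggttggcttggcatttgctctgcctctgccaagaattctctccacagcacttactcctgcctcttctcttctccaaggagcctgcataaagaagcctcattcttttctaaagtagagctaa
Atp8a2 chr14:59783201-59783400: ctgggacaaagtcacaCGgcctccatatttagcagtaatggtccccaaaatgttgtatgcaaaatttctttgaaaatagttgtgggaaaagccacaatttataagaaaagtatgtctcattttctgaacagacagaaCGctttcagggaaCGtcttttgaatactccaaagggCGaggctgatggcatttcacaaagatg
Runx2 chr17:44677801-44678000: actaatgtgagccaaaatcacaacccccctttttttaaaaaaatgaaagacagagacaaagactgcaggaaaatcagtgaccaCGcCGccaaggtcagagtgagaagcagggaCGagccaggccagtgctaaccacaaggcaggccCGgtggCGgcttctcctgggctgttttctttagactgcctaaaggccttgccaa

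The bin in Nav3, a neuron navigator protein, lies 57.5 kb from the TSS and held 4 CG sites. Its level was 0% in WT (38 calls, interval 0 to 9.18%) and 100% in TCKO (32 calls, 89.3 to 100%). The bin in intron 10 of Supt3, a subunit of the SAGA complex, was at 0% in WT (46 calls) and 93.7% in TCKO (79 calls). In intron 16 of Dnm3, a dynamin, the level was 0% in WT (34 calls) and 90.9% in TCKO (44 calls). In intron 29 of Atp8a2, a phospholipid flippase, it was 9.26% in WT (54 calls) and 100% in TCKO (35 calls). The bin in Magi2, a junctional scaffold protein, lies on chromosome 5 from 20228001 to 20228200, upstream of and over the first bases of an alternative first exon, and had 0% in WT (48 calls) and 92.9% in TCKO (70 calls). The Runx2 bin lies in intron 5, at 136.9 kb from the TSS, and had 1.85% in WT (54 calls) and 85.4% in TCKO (41 calls). An adjusted p below 0.05 was part of the choice of these 6 bins, so passing the test is not a further result. By the Fisher exact test their Benjamini-Hochberg adjusted p ran from 3.02e-25 to 3.98e-15 over the 2534629 covered bins. The bins were chosen for the size of their gain and are shown as examples only.

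The whole series was checked before the gene bodies were read. The WT library held 261062118 calls on nuclear chromosomes and the TCKO library 223581206, or a mean of 5.97 and 5.11 calls for each reference CG cytosine. A stretch of Tet1 had 755 calls in WT and 70 in TCKO, one of Tet2 had 122 and 13, and one of Tet3 had 133 and 9, so the library labelled TCKO has few reads over parts of all 3 genes. Over the whole genes the calls in WT and TCKO were 14737 and 11658 in Tet1, 9452 and 7407 in Tet2, and 10356 and 8480 in Tet3. The starts of marker genes (within 1 kb of the TSS) did not separate the cell types by list. Of 6 osteoblast genes, Col1a1 and Col1a2, the chains of type I collagen, were at 0.613% and 8.54% in WT and at 2.76% and 34.7% in TCKO. Runx2, Sp7 and Alpl were at 13.8, 20.9 and 32.1% in WT and at 30.7, 30 and 29.3% in TCKO, and Bglap was at 71.9 and 79.4%. In WT, 4 hematopoietic genes were at 61.9 to 78.4%, 3 endothelial genes at 64.9 to 80.7%, 3 muscle genes at 10.3 to 65.2% and 3 neural genes at 8.25 to 57.6%. The share of cells other than osteoblasts in either culture was not tested.

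Nearly every long gene body was more methylated in TCKO than in WT. Pooled over all bodies, 72.6% of 42858023 calls were methylated in WT and 80.1% of 36574814 in TCKO, a gain of 7.47 percentage points (interval 7.45 to 7.48). Of the 953 bodies, 929 (97.5%) rose by the Fisher exact test at an adjusted p below 0.05, against 74.4% of all 15652 autosomal gene bodies with at least 100 calls in each library. Only 7 (0.735%) fell, against 1.71% of all, and 17 were not called. A long body holds more calls than a short one (median 35251 in WT, against 2434 over all bodies), so that a smaller difference passes the test. The share with a gain of 10 points or more, which does not depend on the test, was 16.1% of the long bodies and 14.1% of all. Such a share still depends on the spread of the differences, which was wider over all bodies. The standard deviation was 2.78 points in the long bodies and 4.65 over all. Differences of the long bodies ran from −4.34 to 16.4 points, with a median of 7.76 and 90% of them between 2.36 and 11.8. The median over all gene bodies was 5.94. WT levels spanned 55.5 to 85.6% and TCKO levels 51.8 to 90.04%. The gain was present on both strands: 935 bodies were higher in TCKO on the plus and on the minus strand, and the gains on the 2 strands of a gene differed by a median of 0.739 points.

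**Figure D1:**
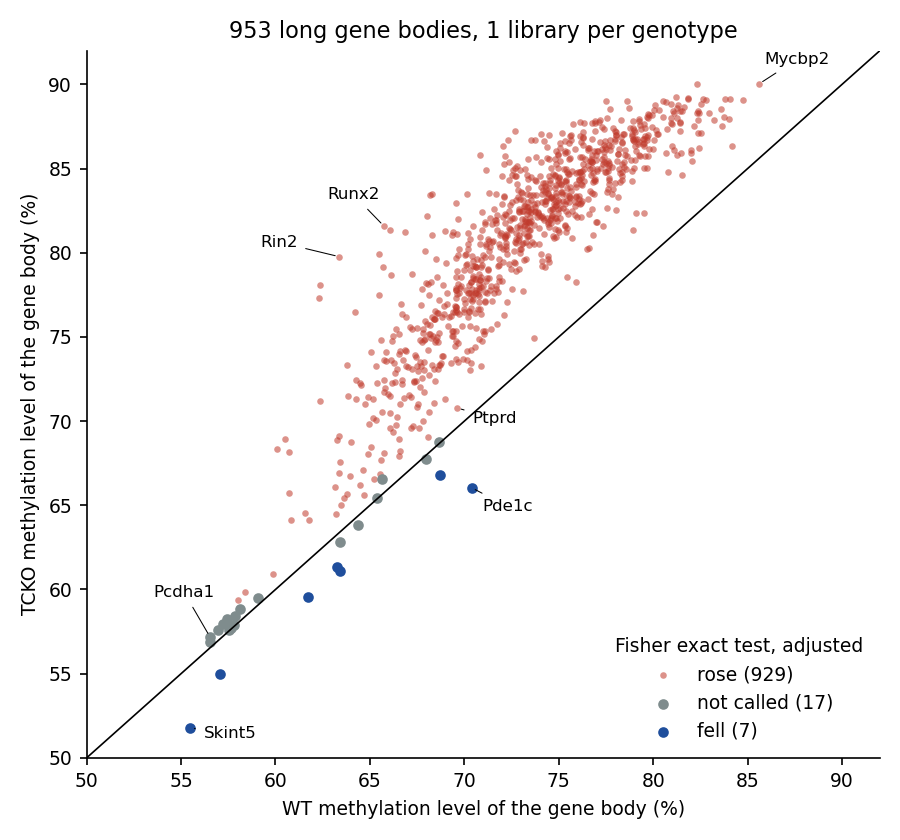
Methylation level of each of the 953 long gene bodies in the WT library (x axis, %) and the TCKO library (y axis, %), 1 point per gene, with the line of equal levels. The 929 bodies that rose (red) lie above the line, the 7 that fell (blue) lie below it, and the 17 not called (grey) lie near it, most of them among the lowest WT levels.

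Compared with the rest of the autosomes, long gene bodies started at a higher level and gained more, but shorter gene bodies started higher still. The autosomes outside them were at 69.9% in WT and 75.9% in TCKO, a gain of 5.98 points, and the gain of the long bodies was larger than that of the rest on 19 of 19 autosomes. In WT, genes of 20 to 50, 50 to 100 and 100 to 200 kb were at 75.7, 75.9 and 75.03%, above the 72.6% of the long bodies. Genes of 20 to 200 kb, pooled, gained 6.95 points, so that long bodies gained 0.518 points more (interval 0.494 to 0.543). With each gene given the same weight this gap was 1.25 points. The gain did not grow steadily with length. It was 5.91 points in genes of 20 to 50 kb, 6.91 in those of 50 to 100 kb and 7.67 in those of 100 to 200 kb. It then was 7.90 in the 614 genes of 200 to 400 kb, 7.39 in the 245 of 400 to 800 kb and 6.84 in the 94 of 800 kb and over. Genes of 100 to 200 kb thus gained more than the pooled long genes, and 200 kb is not a boundary in these data. Next to the threshold, Pcbp3 (200031 bp) went from 79.8 to 86.2%, Plcxd3 (200.1 kb) from 71.04 to 75.2% and Umad1 (200.2 kb) from 76.1 to 86.9%. Just under it, Atp9b (199.9 kb) went from 81.3 to 87.5%, Morc1 (199.7 kb) from 72.4 to 77.96% and Clec16a (199.5 kb) from 76.5 to 85.9%. The longest genes had the lowest WT level, 70.4% at 800 kb and over against 73.9% at 200 to 400 kb, and the fewest CG sites, with a median of 5.80 per kb against 7.94 over all long genes. Across the 953 bodies the correlation of the gain with log length was r = −0.161 and with CG sites per kb r = 0.312, as a description of genes within 1 pair of libraries.

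**Figure D2:**
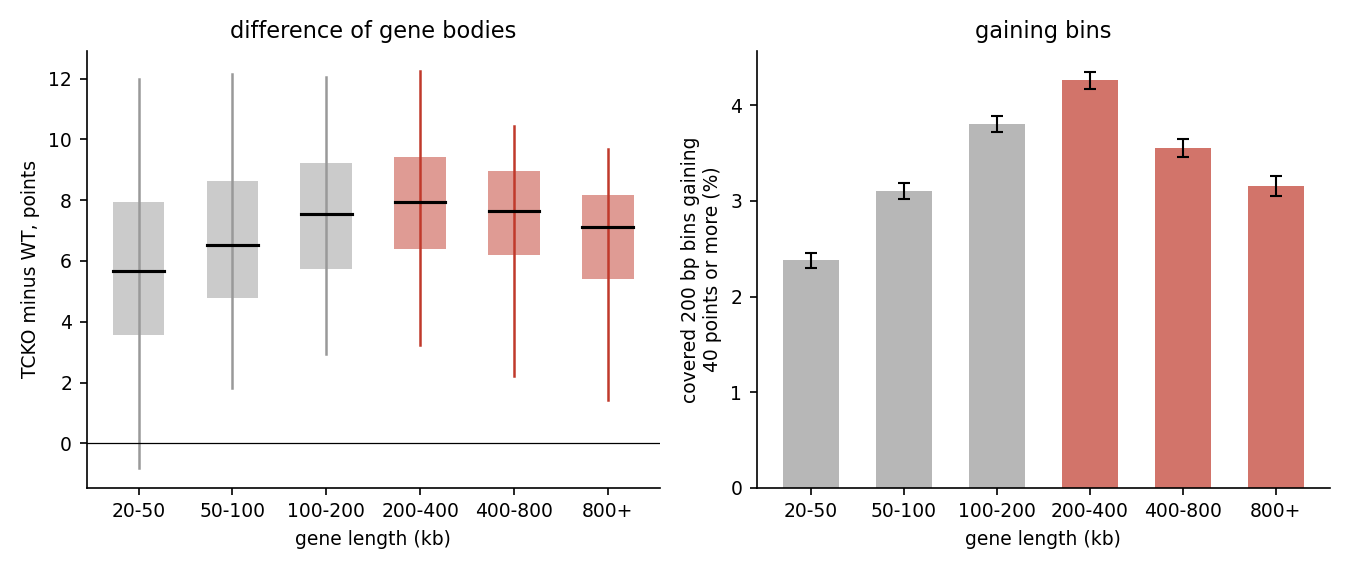
Left, difference between TCKO and WT (percentage points) of the gene bodies in 6 classes of gene length, with the median (black line), the middle 50% (box) and the middle 90% (line). Right, share of covered 200 bp bins that gained 40 points or more in the same classes, with 95% Wilson intervals. Long genes are in red, and the gaining share was highest, at 4.26%, in genes of 200 to 400 kb.

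The sequence around a long gene also gained methylation. Within 100 kb of the long genes and outside all protein-coding genes, the pooled level went from 69.5 to 76.0%, a gain of 6.56 points, which was 0.906 points less than inside (interval 0.867 to 0.945). For 950 genes the flanks held at least 1000 calls in each library. The body was above its own flanks in 757 of them in WT (79.7%) and in 820 in TCKO (86.3%), with a median gap of 3.04 points in WT and 4.36 in TCKO. The flanks begin right at the gene and include sequence next to the TSS, whereas the body leaves out its first 5 kb. The part of this unlike trimming in the gaps between body and flanks was not tested. The gain of the body exceeded the gain of its flanks in 659 of 950 (69.4%). Body and flank gains went together across genes (r = 0.645 over 950 genes, which share the libraries and their depth). Runx2 was below its flanks, with 65.7% inside and 74.1% outside in WT, and gained 15.9 points inside and 11.7 outside. Mycbp2 was the reverse, with 85.6% inside and 70.9% outside in WT, and gained 4.42 points inside and 6.50 outside.

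Pooled over genes, the gain was almost the same from end to end of the body. When each gene was cut into 20 equal parts, the pooled difference ran from 7.20 points in part 1, next to the start, to 7.61 points in part 15. The WT level went from 71.9% in part 1 to 73.4% in part 20, and the share of gaining bins was between 3.30% (part 2) and 3.98% (part 8), with 3.45% in part 1 and 3.396% in part 20 among the lower values. Of the 946 genes with calls in all parts, 716 were higher in TCKO in all 20. Some single genes were less even than the pooled profile, such as Nrxn3 with a difference of −2.93 points in part 7 and 12.1 in part 12. The first 5 kb, which the body leaves out and which holds the start of the gene, was far lower, at 47.8% in WT and 54.7% in TCKO. First introns beyond these 5 kb gained 7.58 points (71.3 to 78.9%) and later introns 7.54 (73.0 to 80.5%). Exons were more methylated than introns in both libraries and gained less, from 75.1 to 81.6% (6.54 points, interval 6.44 to 6.63) against 72.6 to 80.1% in introns (7.51 points, 7.49 to 7.53). Repeats within the bodies gained 3.39 points, from 75.5 to 78.9%, and the sequence outside repeats gained 8.36 points, from 72.0 to 80.4%.

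**Figure D3:**
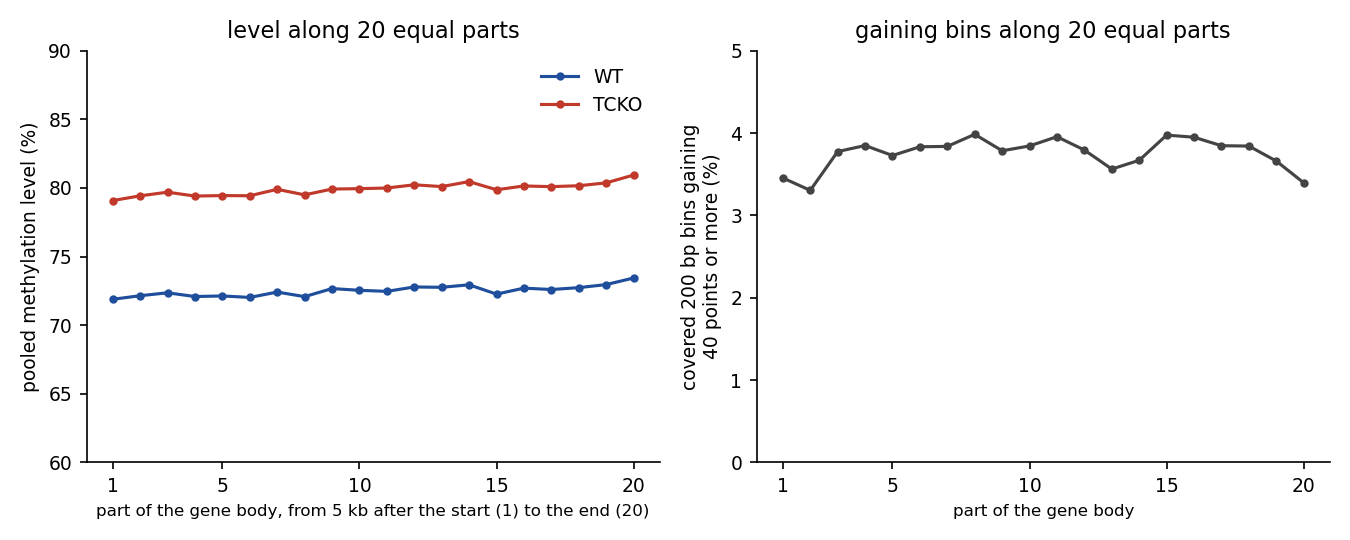
Left, pooled methylation level (%) of the 953 long gene bodies in WT and TCKO along 20 equal parts, from 5 kb after the TSS (part 1) to the gene end (part 20). Right, share of covered 200 bp bins that gained 40 points or more in the same parts. The lines of both libraries run level and stay 7.20 to 7.61 points apart.

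The gain was uneven at the scale of 200 bp. A bin was covered if it held at least 4 CG cytosines with a mean of at least 4 calls in each library, and gaining if its level was at least 40 points higher in TCKO. In the long bodies 16525 of 439894 covered bins gained (3.76%, interval 3.70 to 3.81), against 3.06% of all covered bins of the nuclear genome and 2.98% of the autosomes outside long bodies. This share is not particular to long genes. It was 2.38% in genes of 20 to 50 kb, 3.10% in those of 50 to 100 kb and 3.81% in those of 100 to 200 kb. Among the long genes it was 4.26% at 200 to 400 kb, 3.55% at 400 to 800 kb and 3.15% at 800 kb and over. Only 160 bins lost 40 points or more, and the background of such bins was 0.0482%. With an adjusted p below 0.05 as well, 15584 bins gained (3.54%, background 2.87%) and 133 lost (background 0.0355%). Of the 953 genes, 937 had at least 1 gaining bin, 83 had a losing bin, and the median share was 3.47% of the bins. The long genes had a median of 365 covered bins, against 22 over all gene bodies measured. A gene with more covered bins is more likely to hold such a bin, so the 2 counts of genes depend on length. The gaining bins went from a median of 27.8% in WT to 81.9% in TCKO, while most other bins were high in both. Bins at 80 to 100% in WT averaged 87.6% and reached 88.7% in TCKO, while those at 0 to 20% went from 9.53 to 49.1%. Because bins sorted on the WT level or the gain also collect counting noise, bins were chosen on one strand and read on the other. Of 213607 bins with at least 8 calls per strand in each library, 11073 gained 40 points on the plus strand. On the minus strand the same bins went from 43.0 to 77.9%, a gain of 34.9 points. Taken singly, 4968 of the 11073 (44.9%) also gained 40 points on the minus strand. Bins below 20% on the plus strand in WT went from 17.5 to 53.7% on the minus strand. Calls on the 2 strands come from different DNA strands but share cells and library, so this check bears on counting noise and not on the genotype.

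Runs of gaining bins were mostly short, but an adjacent bin that was not covered also ended a run. Of 14249 runs of adjacent gaining bins, 86.9% were a single bin and 320 had 3 bins or more. These counts thus depend on coverage and do not give the size of the gaining regions. Where it was covered, the bin next to a gaining bin also gained in 39.0% of cases (4552 of 11679). The bin 1000 bp away gained in 7.81% and the bin 20000 bp away in 5.03%. The longest runs were 1200 bp and lay in 8 genes: Foxn3, Arhgef28, Grik1, Erg, Dclk1, Cfap299, Adamtsl3 and Tenm3. In Dclk1, a microtubule-associated kinase, the run on chromosome 3 from 55517201 to 55518400 held 62 CG cytosines and went from 7.87% (470 calls) to 73.4% (561 calls). In Foxn3, a forkhead transcription factor, the run went from 15.4 to 81.5%, and in Erg, an ETS factor, from 11.7 to 76.7%. Of the gaining bins 3.97% touched an exon, against 4.80% of the covered bins. The share that gained was between 3.58 and 4.25% for bins with 4 to 19 CG cytosines and 0.759% for those with 20 or more.

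Some short binding strings were more frequent in gaining bins. The letters TGACTCA, read on both strands as the core of AP-1 sites, were present in 7.64% of the gaining bins of long genes, in 2.94% of their other covered bins and in 3.05% of all covered autosomal bins. AACCACA, a Runt string, was present in 8.93% of gaining bins, 4.27% of other covered bins and 5.02% of all. CATTCCA, the TEAD string, stood in 5.44%, 3.35% and 3.21%, and the E-box CAGCTG in 9.51%, 6.34% and 6.35%. The Nav3 bin shown above holds the AP-1 string, and the Dnm3 and Runx2 bins hold the Runt string. These are matches of letters, not measured sites, and base composition was not matched here.

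The genes with the largest gain were not the longest ones. Rin2 (chromosome 2, 145675215 to 145887616, plus strand), which encodes an exchange factor for Rab5, went from 63.4 to 79.8%, a gain of 16.4 points (interval 15.4 to 17.4). Runx2 (chromosome 17, 44495987 to 44814797, minus strand), the transcription factor required for osteoblast formation, went from 65.7 to 81.6%, a gain of 15.9 points (15.2 to 16.5). Gm42906 went from 62.4 to 78.1%, Pdzrn3, a ubiquitin ligase with PDZ domains, from 68.2 to 83.4%, and Angpt1, a ligand of the Tie2 receptor, from 66.1 to 81.3%. In each of these 5 the WT level was below the median of the long bodies (73.1%) and the TCKO level, between 78.1 and 83.4%, was around the median of 81.9%. Runx2 also had the highest share of gaining bins, 68 of 459 (14.8%). Supt3, which overlaps Runx2 on the opposite strand, had 63 of 465 (13.5%), so part of these bins count for both genes. Bicc1, an RNA-binding protein, had 45 of 323 (13.9%), 2010111I01Rik 43 of 313 (13.7%), and Antxr1, a collagen-binding membrane receptor, 25 of 185 (13.5%). In Runx2 all 20 parts were higher in TCKO, 6 of them by 20 points or more. Part 1 went from 54.3 to 86.5% and part 6 from 48.4 to 80.3%, whereas part 5 was low in both, at 35.1% in WT and 40.2% in TCKO.

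Among the 10 longest genes the 2 longest models, Gm20388 (4435 kb) and Fgfr2 (2961 kb), run across 73 and 30 other protein-coding genes, and their values stand for those stretches. Most of the other 8 encode neuronal adhesion or synaptic proteins, while Macrod2 is an ADP-ribose hydrolase and Lrp1b a lipoprotein receptor relative. Cntnap2, a neurexin relative at the axon, went from 68.2 to 75.2%, and Lsamp, an adhesion molecule of the limbic system, from 68.1 to 75.2%. Macrod2 started higher and went from 74.9 to 82.6%. Lrp1b went from 68.9 to 73.9%, Dlg2, a postsynaptic scaffold, from 68.8 to 73.9% and Nrxn3, a presynaptic adhesion receptor, from 67.5 to 73.3%. Csmd1 gained less, from 63.9 to 66.7% (2.80 points, interval 2.42 to 3.17, adjusted p = 3.77e-47 by the Fisher exact test), with 16 gaining bins of 1374 (1.16%). Its last 3 parts gained 7.39, 6.45 and 11.9 points, and no other part gained over 5.29. Ptprd (chromosome 4, 75941238 to 78211961, minus strand), a receptor tyrosine phosphatase of synapses, went from 69.6 to 70.8%, a gain of 1.16 points (0.841 to 1.48, adjusted p = 3.79e-12 by the Fisher exact test). In Ptprd 11 of the 20 parts were lower in TCKO, with a difference of −3.601 points in part 1, whereas parts 16, 17 and 20 gained 8.46, 8.64 and 8.25. It held 57 gaining and 23 losing bins and had 0.696 TCKO calls per WT call, against a median of 0.853 over the long bodies. The part of this lower depth in the result was not tested.

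**Figure D4:**
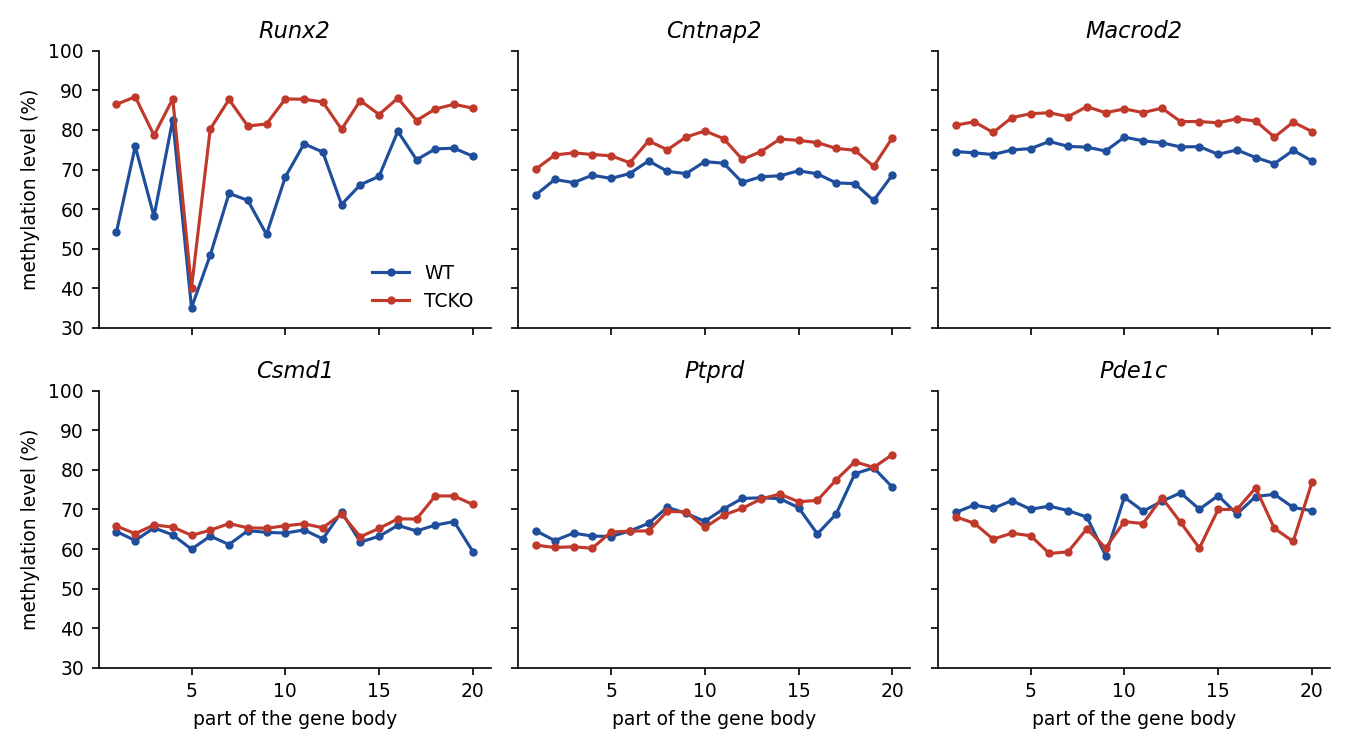
Methylation level (%) in WT and TCKO along 20 equal parts of 6 long gene bodies, from 5 kb after the TSS (part 1) to the gene end (part 20), 1 library per line. Runx2, Cntnap2 and Macrod2 were higher in TCKO in all 20 parts, Csmd1 in 19, Ptprd in 9 and Pde1c in 5.

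The gain was largest at intermediate WT levels. In the 364 genes with a WT level of 70 to 75% the median gain was 8.56 points, and in the 266 of 75 to 80% it was 8.01. Above 80% there were 63 genes with a median gain of 6.26. Mycbp2, a ubiquitin ligase, had the highest WT level and went from 85.6 to 90.04%, without a gaining bin among 343. Ascc3, a helicase, went from 84.8 to 89.1%, Prkdc, the catalytic subunit of the DNA-dependent protein kinase, from 84.2 to 86.4%, Strbp from 84.1 to 89.1% and Mbd5 from 84.02 to 87.96%. At the low end, the 41 genes of 60 to 65% had a median gain of 4.79 and the 16 genes below 60% one of 0.590. Of the 17 genes not called, 8 are overlapping models of the protocadherin alpha cluster that share most of their sequence, such as Pcdha1 at 56.5% in WT and 57.2% in TCKO. The others were Cpne4, Myo3a, Kcnh8, Cntn6, Ccdc7a, Hecw1, Tmem132b, Nek11 and Gm7247. Myo3a, a myosin of sensory cells, had 56.5 and 56.9%, Cntn6, a neuronal adhesion protein, 65.4 and 65.4%, and the potassium channel Kcnh8 63.4 and 62.8%. These genes do not share a low depth, with 0.801 to 0.918 TCKO calls per WT call.

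The 7 genes that fell were Pde1c, Skint5, Catsperb, Gm3383, Skint6, C130026I21Rik and Lipo3, and none fell by 5 points. Pde1c (chromosome 6, 56069804 to 56569103, minus strand), a cyclic nucleotide phosphodiesterase, went from 70.4 to 66.05%, a difference of −4.34 points (interval −5.10 to −3.58, adjusted p = 1.11e-28 by the Fisher exact test). It had 0.519 TCKO calls per WT call and 13 losing bins among 274. Calls in Pde1c were also of an unusual kind: of its 1486 CG dyads (both cytosines of 1 CG site) with at least 5 calls in each library, 69 were methylated at 80% or more in WT while all TCKO calls were unmethylated. That is 46.4 per 1000, against 0.136 per 1000 over all long bodies, where 307 of 2260572 dyads were of this kind. Without dyads that were opposite in the 2 libraries, Pde1c had 69.8% in WT and 68.5% in TCKO, a difference of −1.32 points. Cobl (16.5 per 1000), Chn2 (14.8) and Creb5 (10.6) also stood above the rest in this count and rose by 6.93, 6.15 and 7.57 points. Skint5 and Skint6, immunoglobulin-like genes of skin and thymus that lie among similar copies, went from 55.5 to 51.8% and from 57.1 to 54.97%, with 0.475 and 0.470 TCKO calls per WT call and no such dyad. Catsperb, a subunit of the sperm calcium channel, went from 63.4 to 61.1% at a usual ratio of 0.886 (adjusted p = 2.25e-05 by the Fisher exact test), and Lipo3, of a lipase family with similar copies, from 68.7 to 66.8%. The flanks of Pde1c and Skint5 were also lower in TCKO, with differences of −4.715 and −3.804 points. The part of the lower depth and of the opposite dyads in these falls was not tested beyond the value without such dyads, nor was the cause of either.

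Gain differed between the low and the high end of the depth ratio (TCKO calls per WT call), without a steady trend over all long genes. Across all of them the Pearson correlation of ratio and gain was r = 0.152 and the Spearman correlation −0.0793. In 19 long genes the ratio was below 0.75, and their differences ran from −4.34 to 10.97 points with a median of 5.69, 16 of them having risen and 3 fallen. In 19 others the ratio was above 1, and all 19 rose, by 4.95 to 16.4 points with a median of 11.98. The latter include Rin2, Gm42906 and Angpt1 of the genes with the largest gain, as well as Map2, a dendritic microtubule protein (62.3 to 77.3%), and the receptor kinase Erbb4 (64.2 to 76.5%). Prkd1, Nubpl, Akap6 and Npas3, which are the 4 long genes between 50341231 and 54072175 on chromosome 12, all had a ratio above 1 and rose by 13.4, 10.6, 13.4 and 12.8 points. Within the 862 genes of ratio 0.79 to 0.92 the correlation of ratio and gain was r = −0.203. The part of depth in these gains was not tested. Runx2, Pdzrn3, Bicc1 and Antxr1 had usual ratios of 0.881, 0.828, 0.849 and 0.823.

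The 7 lists of genes by function are described by counts and medians, and a list's counts are read beside those of all long bodies, of which 97.5% rose and 16.1% gained 10 points or more. Since so many long bodies rose, a list in which all members rose does not stand apart by that count. Of 34 transcription factors of skeleton and mesenchyme, 22 are long, and all 22 rose, with a median gain of 9.03 points and 8 of them at 10 points or more. Runx1, a relative of Runx2 in blood formation, went from 69.7 to 82.0% with 32 of 265 bins gaining (12.1%). Gli2 and Gli3, the transcription factors of hedgehog signalling, gained 10.3 and 10.7 points, and Foxp1, a forkhead factor, 10.6. Nfia and Nfib, of the nuclear factor I family, gained 10.01 and 10.09 points. The chondrocyte factors Sox5 and Sox6 gained 7.08 and 7.19 points, Tead1, a partner of YAP, 9.39, Ebf1 9.14, Zfpm2 8.93 and Prdm16 9.59. Meis2, Pbx3, Creb5, Glis3, Foxp2, Tshz2 and Mitf gained 7.57 to 8.42 points. Esr1, the estrogen receptor alpha, was the lowest, from 70.2 to 73.6% (3.44 points).

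Among 50 genes of the extracellular matrix and its enzymes, 28 are long and all 28 rose (97.5% of all long bodies did), with a median gain of 8.40 points. Fndc3b, which has fibronectin type III domains but is not an established matrix component, was the highest in this list. It went from 72.3 to 86.7% with 41 of 391 bins gaining (10.5%). Col14a1 and Col24a1, which encode fibril-associated and fibrillar collagen chains, went from 72.5 to 84.6% and from 72.5 to 83.0%. Adamtsl3 gained 11.98 points, Tnr, a tenascin of the nervous system, 12.2, Ltbp1, which binds latent TGF-beta, 9.60 and Fbn1, the main chain of microfibrils, 8.25. The lowest were Ndst4, an enzyme of heparan sulfate (67.8 to 72.5%), the glypican Gpc5 (70.3 to 75.6%), the collagen Col22a1 (67.7 to 73.5%) and the sulfotransferase Hs3st4 (65.7 to 71.7%). Gpc6, also a glypican, gained 7.91 points. Of 35 genes of growth factor signalling in skeletal cells, 11 are long, all 11 rose and the median was 8.66. That median is the value of Fgfr2, whose model runs across 30 other protein-coding genes. Erbb4 was the highest. The BMP receptor Bmpr1b gained 9.43 points, the IGF1 receptor Igf1r 9.79, the growth hormone receptor Ghr 8.57, the Wnt5a receptor Ror1 9.12 and Pdgfd, a PDGF ligand, 10.1. Fgf14, which acts on sodium channels, went from 63.8 to 65.7%, and the neuregulin Nrg3 from 64.7 to 65.6% (0.918 points, adjusted p = 0.000144 by the Fisher exact test).

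The medians of the 3 neuronal lists were below that of all long bodies (7.76 points), of which 97.5% rose. Of 65 long genes of axon guidance and synaptic adhesion 64 rose, with a median of 7.45, from 0.0425 points in Cntn6, which was not called, to 12.9 in Efna5, an ephrin ligand. All 21 long neurotransmitter receptor genes rose, with a median of 6.80 and the lowest value of 0.972 points in the GABA receptor Gabrg3. Of 33 long ion channel genes 32 rose, with a median of 6.89 and the highest value of 10.1 in Kcnh1. Their median WT levels were 70.7, 68.1 and 70.6%, against 75.2% in the list of transcription factors. Of 23 genes at common fragile sites 21 are long and all 21 rose, with a median of 7.05, from 1.58 points in Sntg1 to 9.46 in Auts2. Fhit, a nucleotide hydrolase, went from 73.6 to 80.6% and Wwox, an oxidoreductase, from 76.7 to 85.4%. The lists differ in WT level, length and CG content, and whether a list as such differs from other genes was not tested.

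**Figure D5:**
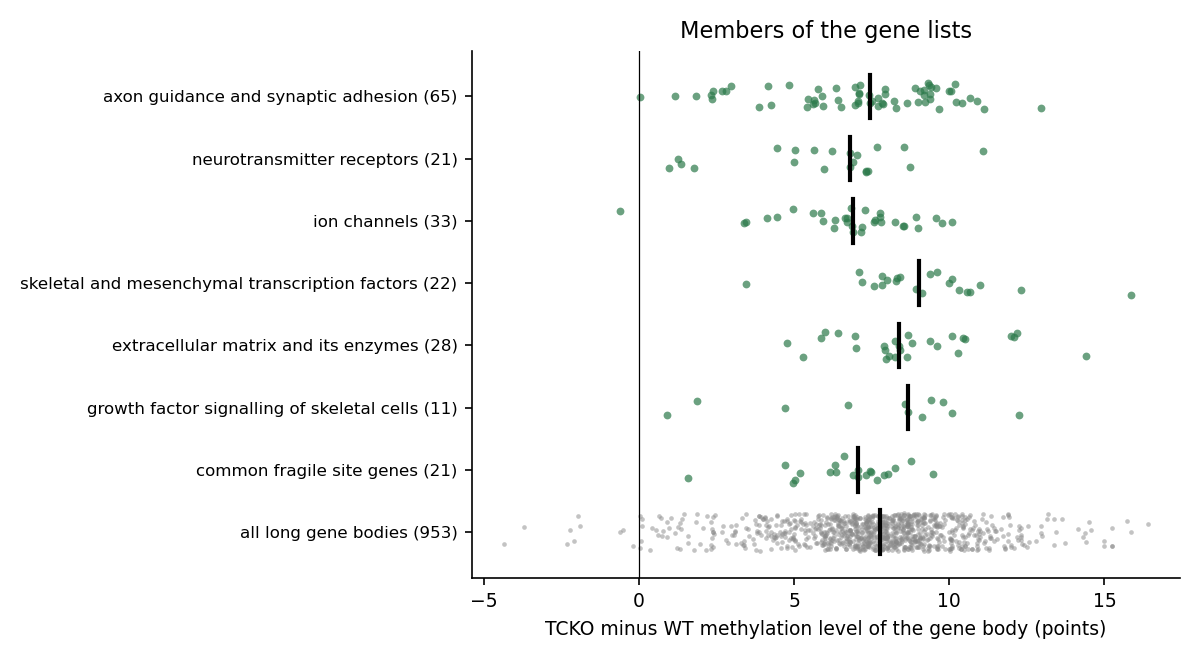
Difference between TCKO and WT (percentage points) of the long gene bodies in 7 gene lists and of all 953 long bodies, 1 point per gene, spread vertically for legibility, with the median as a black line. Medians were 9.03 points in the list of skeletal transcription factors, 6.80 in neurotransmitter receptors and 7.76 over all long bodies.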

How the data were processed

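WGBS was made from primary osteoblasts of WT and TCKO mice, 1 library each, grouped by their labels. Reads were mapped by the authors to GRCm38 (BSMAP 2.74), unique hits were retained, and 2 raw counts were deposited for every CG cytosine of either strand: the methylated calls and the total calls. Removal of duplicate reads is not described in the sources used here, and reads that fit several copies of a repeat or gene family were not kept. Here counts were pooled over each gene body (GENCODE M21, 200 kb or more, from 5 kb after the TSS) and over 200 bp bins of the GRCm38 sequence, whose soft-masking gave the repeats. Bins needed 4 or more CG cytosines with 4 or more calls on average in each library, and were called gaining at 40 points. Gene bodies and bins were tested with a 2-sided Fisher exact test, adjusted by Benjamini-Hochberg over 15652 bodies or 2534629 bins, at an adjusted p below 0.05. Levels carry 95% Wilson intervals and differences Newcombe intervals. Calls on 1 read are not independent, so both, and all p-values, cover counting error only. Depth was 5.97 (WT) and 5.11 (TCKO) calls per CG cytosine, too few for single cytosines.

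The genes named were the 10 longest, the 5 most extreme at each end in difference, WT level and gaining share (at least 100 covered bins), the 3 on either side of 200 kb, the extremes of each list, and the skeletal and matrix lists. Named bins had at least 8 CG cytosines and an adjusted p below 0.05, and lay outside chromosome 18. Other genes were chosen after their values were seen. The members and lists were chosen with earlier results of these data known. The tests were tested on simulated data. Alternatives changed the start, length, strand, sites, depth, gain and weighting, and 2 on depth and opposite dyads were added after the data were seen. The work was done in Python 3.11.15 (numba 0.67.0, SciPy 1.17.1, NumPy 2.4.6), with plots by matplotlib 3.10.9. Expression, 5hmC and accessibility were not analysed here, and some genes that the naming rule covers are not reported here.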

Additional observations from a re-analysis of the deposited data

How the results depend on the processing

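The pooled gain of long gene bodies stayed positive under every alternative run. Against 7.47 points, it was 7.52 at 150 kb or more, 7.25 at 300 kb or more, 7.54 and 7.39 on coding-strand and template-strand cytosines, 7.52 without cytosines of more than 50 calls, 8.36 outside repeats, 7.44 without stretches shared with another gene and 7.87 as the mean of cytosines with at least 4 calls. Of the alternatives chosen after seeing the data, it was 7.36 without dyads of opposite calls and 7.45 in members with 0.75 to 1 TCKO calls per WT call. The share of gaining bins (3.76%) was 5.05% at a mean of at least 1 read, 2.31% at 10 reads, 7.29% at a gain of 30 points, 1.94% at 50, 3.54% with an adjusted p, 3.55% in genes of 300 kb or more and 4.26% in bins mostly outside repeats. The smallest and largest differences among the 20 parts were 7.20 and 7.61 points, 7.40 and 7.75 as means over genes, 7.0 and 7.40 at 300 kb or more, and the smallest was 7.11 with parts from the TSS. With at least 5 points also required, 809 bodies rose and 0 fell (7 fell by the Fisher exact test alone, and 6 on coding-strand calls). The gap to genes of 20 to 200 kb (0.518 points) was 1.25 with equal weight per gene, 0.380 in introns and 0.588 in bins of 4 to 6 CG cytosines. The gap to the flanks (0.906) was 1.16, 0.950 and 0.829 in the same order. For 106 named genes, 0 of 1058 recomputed differences reversed the direction of a gene that was called as risen or fallen. Changes of sign in the named genes that were not called were not counted as reversals. Of the 1058, 187 lay outside the counting interval of the reported value. No paired analysis was possible because each genotype has 1 library. The depth limits single cytosines, and 1 library per genotype leaves the spread between animals unknown.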
